A study of Mus musculus with 12 samples.

Results

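The genes described here are 37 genes of the glutamate synapse, followed in the cerebellum (Cb) and the forebrain/midbrain (F/M) of *Tpp1*-/- mice. They were taken by gene symbol, and all 37 were found among the 52459 genes listed for each library. They comprise 4 AMPA, 5 kainate and 7 NMDA receptor subunits, 1 delta receptor, 6 metabotropic receptors, 3 vesicular and 2 plasma membrane glutamate transporters, 6 postsynaptic scaffolds and 3 auxiliary subunits of receptors. Other genes of the same synapse, such as *Homer1*, were not among the 37 and were counted separately.

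RNA was sequenced from 12 libraries of male mice of 4 months of age, 3 in each of 4 groups. F/M-N and Cb-N came from wild-type mice, and F/M-T and Cb-T from their siblings homozygous for a *Tpp1* gene disrupted by targeting, a line kept by crossing heterozygotes. *Tpp1* encodes the lysosomal protease tripeptidyl peptidase 1, whose loss causes classical late infantile neuronal ceroid lipofuscinosis in humans, and none of the groups carried a transgene or received a treatment. Both tissues were taken from the mice of each genotype, but which Cb and F/M libraries share a mouse is not given in the sources used here. The main fits therefore treat the libraries as independent, and p-values measure the spread between these libraries. *Tpp1* itself was 112, 114 and 112 counts scaled to library size (CPM) in Cb-N and 28.0, 31.0 and 30.0 in Cb-T, and 94.3, 88.7 and 87.7 CPM in F/M-N and 23.9, 21.8 and 23.3 in F/M-T. The decrease on the log2 scale was -1.91 in Cb (SE 0.040, adjusted p = 5.72e-35), and F/M showed -1.94 (SE 0.049, adjusted p = 2.74e-16).

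Glutamate carries most fast excitatory signals in the brain. It is loaded into synaptic vesicles by the vesicular transporters (VGLUT), released, sensed by ion channels of the AMPA, kainate and NMDA types and by G protein-coupled metabotropic receptors, and removed by plasma membrane transporters. Behind the receptors stand scaffolds of the Dlg, Shank and Homer families. In the cerebellum the granule cells are the main glutamatergic neurons and use *Slc17a7* (VGLUT1), whereas many neurons of the thalamus, midbrain, brainstem and cerebellar nuclei use *Slc17a6* (VGLUT2).

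Totals per library ranged from 21428379 to 24458189 counts, so that 3 counts, taken as the detection floor, were worth 0.121 to 0.139 CPM (counting error only). Several marker lists moved with genotype in Cb. Hox genes, which mark the hindbrain behind the cerebellum and the spinal cord, summed to between 0.371 and 0.596 CPM in Cb-N, where 7 of the 15 were at 0 in every library. Their sum was between 14.2 and 14.9 CPM in the 3 Cb-T libraries. Markers of thalamus and midbrain neurons summed to 13.3 to 14.0 CPM in Cb-N against 53.3 to 60.7 in Cb-T. Granule cell markers summed to 5810 to 5932 CPM in Cb-N against 4794 to 4889 in Cb-T, and Purkinje cell markers to 9130 to 9411 and 7631 to 7715 CPM. In bulk tissue, fewer cells of a type and less RNA per cell cannot be told apart.

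A gene was called a DEG at an adjusted p (FDR, edgeR quasi-likelihood test) below 0.1 and a change of at least 1.5-fold, and "rose" and "fell" are used below for an FDR below 0.1 whatever the size. In Cb, 36 of the 37 genes could be tested. *Slc17a6*, *Cnih3*, *Grm5* and *Neto1* were upregulated DEG and *Grm2* was a downregulated DEG. That is 4 of 36 higher and 1 of 36 lower, where 8.54% and 2.66% of all 16382 tested genes were called. At the FDR limit alone 9 of the 36 rose and 21 fell, against 29.8% and 27.9% of all tested genes, and the median log2 fold change of the genes was -0.13 where that of all tested genes was 0.01. In F/M, 36 genes could be tested and 0 were DEG with edgeR, DESeq2 or limma-voom, where 2.63% of all 16665 tested genes were called higher and 0.858% lower. 18 of the 36 had an unadjusted p below 0.05 in F/M, 0 of them with a 1.5-fold change, against 32.8% and 3.89% of all tested genes. At the FDR limit alone 1 of the 36 rose and 15 fell in F/M, against 12.8% and 14.4% of all tested genes, with a median of -0.07 beside 0.01 for all genes.

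**Figure D1:**
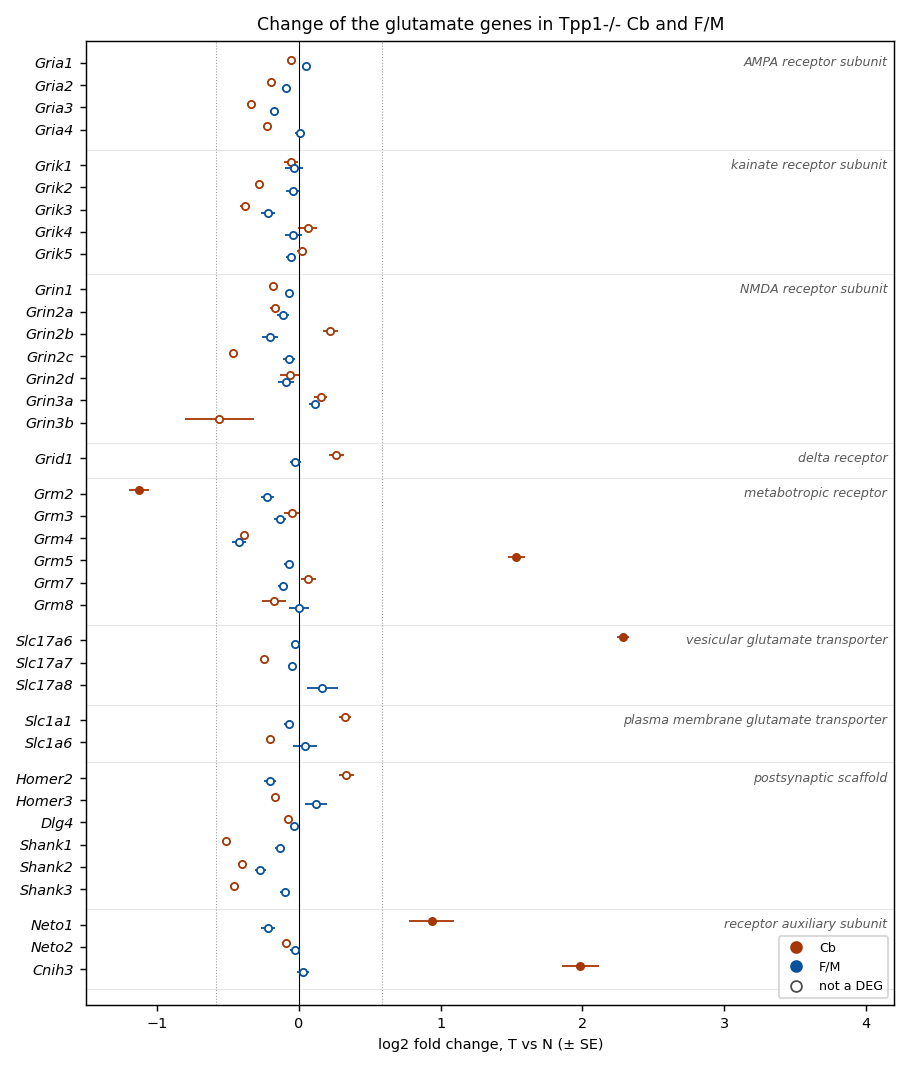
Log2 fold change of T over N (x axis, ± SE from the edgeR fit of 3 against 3 libraries) for each gene (y axis), grouped by role, in Cb (brown) and F/M (blue). Filled points are DEG and the dotted lines mark a 1.5-fold change. The filled points, *Slc17a6*, *Cnih3*, *Grm5*, *Neto1* and *Grm2*, are all from Cb. *Slc17a8* in Cb and *Grin3b* in F/M were not tested and have no point.

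The changes in the 2 tissues were set against each other by an interaction term of tissue and genotype, fitted to the 12 libraries with all 37 genes tested. For 5 genes the change was higher in Cb than in F/M by at least 1.5-fold, namely *Slc17a6*, *Cnih3*, *Slc17a8*, *Grm5* and *Neto1*, and for *Grm2* it was lower. Of all 17482 genes tested, 6.41% were called higher and 1.2% lower in this test. Without a fold limit, 10 of the 35 genes tested in both tissues fell in both, which is 50.0% of the 20 that fell in Cb and 66.7% of the 15 that fell in F/M. Over all 15706 genes tested in both tissues these shares were 35.0% and 65.4%, so that the share of the F/M set was near that of genes in general. *Grin3a* rose in both tissues, which is 11.1% of the 9 that rose in Cb, against 30.8% over all genes. *Grin2b*, *Homer2* and *Neto1* rose in Cb and fell in F/M, which is 33.3% of those 9 against 6.74% over all genes, and 20% of the 15 that fell in F/M against 13.8%.

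Promoter windows are given for *Slc17a6*, *Cnih3* and *Grm2*, which were DEG in Cb, and for *Slc17a7*, the transporter beside which *Slc17a6* is read. Each sequence holds the 250 bases before the RefSeq start site of GRCm38.p6, read 5′ to 3′ on the strand of the gene, with the GC box GGGCGG or its complement CCGCCC in capitals. The window of *Cnih3* ends next to the GENCODE start of the gene, while those of *Slc17a6*, *Slc17a7* and *Grm2* end upstream of it, that of *Slc17a6* the farthest, since RefSeq and GENCODE place these starts differently. They are shown because these genes moved in opposite directions in the same tissue. The *Slc17a6* window lies at chr7:51621580-51621829 on the plus strand, that of *Slc17a7* at chr7:45163671-45163920 on the plus strand, that of *Cnih3* at chr1:181352378-181352627 on the plus strand and that of *Grm2* at chr9:106656110-106656359 on the minus strand.
Slc17a6: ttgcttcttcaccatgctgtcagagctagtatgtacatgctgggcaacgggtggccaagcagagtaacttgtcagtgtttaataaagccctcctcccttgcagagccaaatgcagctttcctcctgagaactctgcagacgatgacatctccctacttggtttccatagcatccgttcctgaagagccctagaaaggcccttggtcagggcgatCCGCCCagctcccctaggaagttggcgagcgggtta
Slc17a7: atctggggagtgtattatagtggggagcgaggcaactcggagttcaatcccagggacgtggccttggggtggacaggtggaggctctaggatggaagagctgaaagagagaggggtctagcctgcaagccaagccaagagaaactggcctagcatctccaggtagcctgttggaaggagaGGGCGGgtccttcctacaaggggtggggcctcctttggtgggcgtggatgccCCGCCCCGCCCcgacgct
Cnih3: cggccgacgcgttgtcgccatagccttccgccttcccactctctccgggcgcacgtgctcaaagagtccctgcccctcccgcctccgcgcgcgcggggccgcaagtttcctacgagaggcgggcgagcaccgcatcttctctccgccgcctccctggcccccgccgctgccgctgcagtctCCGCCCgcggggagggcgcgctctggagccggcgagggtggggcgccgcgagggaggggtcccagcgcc
Grm2: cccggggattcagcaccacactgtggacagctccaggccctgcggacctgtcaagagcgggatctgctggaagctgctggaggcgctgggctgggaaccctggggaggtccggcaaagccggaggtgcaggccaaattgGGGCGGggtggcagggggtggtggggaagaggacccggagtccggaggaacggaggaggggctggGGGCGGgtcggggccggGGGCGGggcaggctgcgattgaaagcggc

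The GC box occurred 1 time in the windows of *Slc17a6* and *Cnih3* and 3 times in those of *Slc17a7* and *Grm2*, where a pair of matches in *Slc17a7* overlapped. It was present in 32.7% of all 32851 promoter windows of this length. The E-box CAGCTG (13% of all windows), the CRE TGACGTCA (1.55%) and the TATA box letters TATAAA (12.4%), each searched on both strands, had 0 matches in the 4 windows. A match describes the letters and not a bound site. RefSeq windows were at hand for 25 of the 37 genes, and *Grm5* was among the others.

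*Slc17a6* showed the largest change of the 36 genes tested in Cb. It encodes VGLUT2 and lies on chromosome 7 from 51622006 to 51671119 on the plus strand. Its level was 20.9, 20.1 and 22.5 CPM in Cb-N and 103, 101 and 103 CPM in Cb-T, so that all Cb-T libraries stood far above all Cb-N libraries. The change was 4.87-fold (log2 2.28, SE 0.044, adjusted p = 2.27e-36). The F/M libraries held 127, 128 and 127 CPM in F/M-N and 122, 126 and 119 in F/M-T (log2 -0.02, SE 0.033, adjusted p = 0.653). The change in Cb exceeded that in F/M by 2.33 on the log2 scale (SE 0.054, adjusted p = 1.18e-23). The Hox genes and the thalamus and midbrain markers were higher in the same Cb-T libraries. The part of neurons from neighbouring regions in the *Slc17a6* result was not tested.

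*Slc17a7*, which encodes VGLUT1 and is the transporter of the granule cell, moved the other way. It was 489, 499 and 497 CPM in Cb-N and 428, 411 and 403 CPM in Cb-T, without overlap (log2 -0.25, SE 0.024, adjusted p = 9.16e-12). Levels in F/M stood at 1106, 1128 and 1148 CPM in F/M-N and at 1064, 1059 and 1066 in F/M-T (log2 -0.05, adjusted p = 0.139). The granule cell and Purkinje cell marker sums were also lower in every Cb-T library than in every Cb-N library. Their part in the lower level of *Slc17a7* was not tested.

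*Slc17a8* (VGLUT3), a transporter of scattered cholinergic, serotonergic and GABAergic neurons, was near the detection floor in Cb. It had 0.266, 0.183 and 0.0928 CPM in Cb-N and 0.970, 0.362 and 0.787 CPM in Cb-T, and was left out of the Cb test for its low counts. In a fit without a filter on low counts, with 2 to 23 counts per library, it rose by 1.93 on the log2 scale (SE 0.451, adjusted p = 0.000122). The level in F/M was 5.64, 6.48 and 6.18 CPM in F/M-N and 6.17, 6.33 and 7.53 CPM in F/M-T, which overlap (log2 0.16, adjusted p = 0.312). The change in Cb exceeded that in F/M by 1.78 (SE 0.465, adjusted p = 0.00519).

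Within a library the 3 vesicular transporters can be set against each other per length, as shares of their summed CPM per kilobase of exon. *Slc17a6* made up 4.09% ± 0.230 (SD, n = 3) of the sum in Cb-N and 19.8% ± 0.457 in Cb-T, while *Slc17a7* went from 95.9% ± 0.221 to 80.1% ± 0.463. In F/M the share of *Slc17a6* was 10.1% ± 0.191 in F/M-N and 10.2% ± 0.302 in F/M-T. The lowest Cb-T share of *Slc17a6* (19.4%) was thus above the highest Cb-N share (4.32%). The exact permutation test of 3 against 3 libraries (two-sided) gave p = 0.1 for Cb, the smallest it can give, and p = 0.5 for F/M. Of the 42 such share tests over all families, 30 gave this smallest p, so it does not set a share apart.

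**Figure D2:**
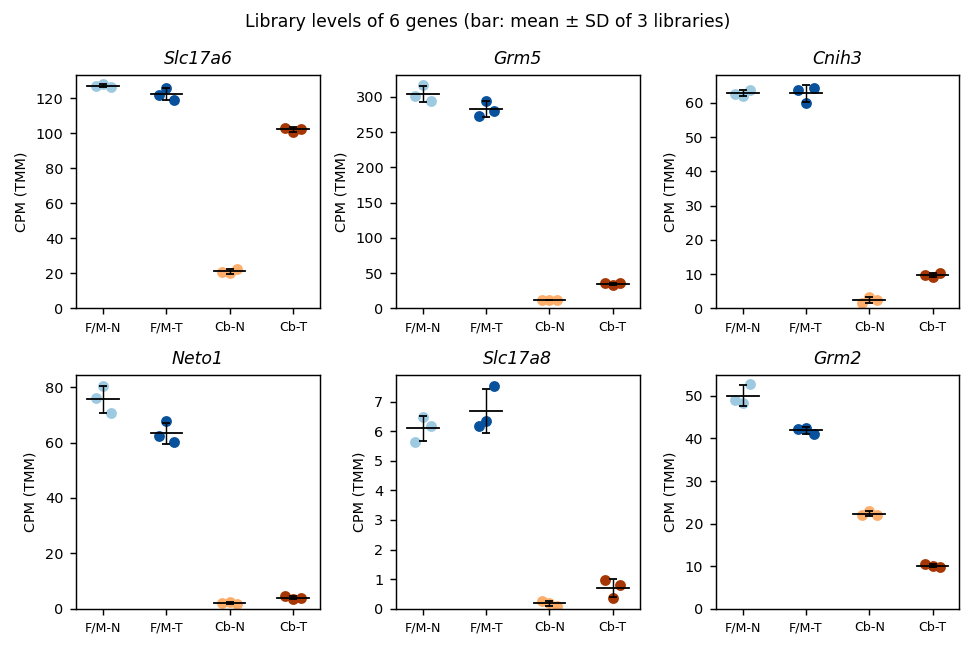
TMM-normalized CPM (y axis, linear and starting at 0) of *Slc17a6*, *Grm5*, *Cnih3*, *Neto1*, *Slc17a8* and *Grm2* in each library of F/M-N, F/M-T, Cb-N and Cb-T. Points are libraries, and bars give the mean ± SD of 3. *Slc17a6* in Cb-T (101 to 103 CPM) comes near its level in F/M, while the other rising genes stay far below theirs, and *Grm2* is lower in Cb-T (9.90 to 10.54 CPM) than in Cb-N (22.0 to 22.9 CPM).

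The plasma membrane transporters moved in opposite directions in Cb. *Slc1a1* (EAAC1, a transporter of many neurons) rose from 39.6, 41.9 and 43.7 CPM to 50.6, 53.0 and 51.7 CPM, with no overlap (log2 0.33, SE 0.044, adjusted p = 3.36e-08). *Slc1a6* (EAAT4), which is concentrated in Purkinje cells, fell from 170, 170 and 180 CPM to 149, 147 and 150 CPM (log2 -0.20, SE 0.029, adjusted p = 7.73e-08). The Purkinje cell markers of the list, 9 of 9, fell in Cb as well, with a median of -0.26. Of all tested genes 27.9% fell in Cb, and 59.2% of the 1707 genes at least 2-fold higher in Cb-N than in F/M-N, as these 9 were. In F/M neither transporter passed the test, at -0.07 and 0.05. Neither change in Cb reached 1.5-fold.

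All 4 AMPA receptor subunits, which form the fast ion channels of excitatory synapses, fell in Cb, against 27.9% of all tested genes, and none was a DEG. *Gria3* showed the largest decrease, with 181, 180 and 179 CPM in Cb-N and 138, 142 and 143 in Cb-T (log2 -0.34, SE 0.028, adjusted p = 7.40e-14). *Gria4*, with a high level in the cerebellum, was 678, 698 and 670 CPM in Cb-N and 575, 583 and 576 in Cb-T (log2 -0.23, SE 0.022, adjusted p = 1.43e-11). *Gria2*, the subunit that limits calcium entry, changed by -0.20 and *Gria1* by -0.06. In F/M *Gria3* fell by 0.17 (SE 0.032, adjusted p = 0.000546) and *Gria2* by 0.09, while *Gria1* and *Gria4* were at 0.05 and 0.01 and did not pass. Per length, *Gria1* and *Gria4* were the main subunits in Cb-N at 114 and 108 CPM per kilobase, ahead of *Gria2* at 39.2 and *Gria3* at 18.2, and *Gria1* was first in F/M-N at 92.5. The order depends on the division by exon length: by counts alone *Gria2* led in F/M-N, with 46.9% of the AMPA sum against 28.8% for *Gria1*, and *Gria1*, *Gria4* and *Gria2* held 32.0%, 31.5% and 28.2% in Cb-N. The share of *Gria1* in the AMPA sum was 40.9% ± 0.249 in Cb-N and 43.8% ± 0.200 in Cb-T, and 44.5% ± 0.387 in F/M-N and 46.9% ± 0.165 in F/M-T. That of *Gria4* in Cb went from 38.6% ± 0.364 to 36.9% ± 0.104. These 3 shifts did not overlap between genotypes (exact permutation p = 0.1, the smallest possible, given by 30 of the 42 share tests).

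*Cnih3*, a cornichon protein that binds AMPA receptors and slows their closing, had the second largest increase. It lies on chromosome 1 from 181352628 to 181460641 on the plus strand. Its level was 1.73, 3.26 and 2.504 CPM in Cb-N and 9.87, 9.26 and 10.2 CPM in Cb-T, so that the lowest Cb-T library was well above the highest Cb-N library. The change was 3.96-fold (log2 1.99, SE 0.132, adjusted p = 9.16e-17). F/M held 62.5, 62.0 and 63.8 CPM in F/M-N and 63.8, 60.0 and 64.3 in F/M-T (log2 0.03, SE 0.042, adjusted p = 0.655), and the difference between the tissues was 1.98 (SE 0.134, adjusted p = 1.16e-12). Its level in Cb-T therefore stayed below that in every F/M library.

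Among the 5 kainate receptor subunits, which act on both sides of the synapse, *Grik2* and *Grik3* fell in Cb and *Grik1*, *Grik4* and *Grik5* did not pass the test, at -0.06, 0.06 and 0.02. *Grik3* was 113, 107 and 102 CPM in Cb-N and 81.1, 81.5 and 82.0 in Cb-T (log2 -0.38, SE 0.035, adjusted p = 1.11e-12). *Grik2* was 169, 164 and 160 CPM in Cb-N and 137, 131 and 133 in Cb-T (log2 -0.28, SE 0.029, adjusted p = 7.09e-11). For both genes the Cb-N and Cb-T libraries did not overlap. In F/M only *Grik3* of the 5 fell, from 148, 154 and 132 CPM to 115, 124 and 124 (log2 -0.22, SE 0.047, adjusted p = 0.00212). Per length, *Grik5* took 30.9% ± 0.976 of the kainate sum in Cb-N and 35.0% ± 0.768 in Cb-T, and *Grik3* 26.1% ± 0.669 and 22.3% ± 0.444 (exact permutation p = 0.1 for each, the smallest possible). By counts alone *Grik5* held 18.7% in Cb-N and 22.0% in Cb-T, *Grik3* 27.4% and 24.3%, and *Grik2* led in Cb-N with 41.9%.

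The auxiliary subunits of kainate receptors, *Neto1* and *Neto2*, differed in direction in Cb. *Neto1*, which also binds NMDA receptors, was 2.00, 2.57 and 1.86 CPM in Cb-N and 4.68, 3.62 and 3.89 CPM in Cb-T, without overlap (1.91-fold, log2 0.94, SE 0.160, adjusted p = 3.74e-06). It lies on chromosome 18 and overlaps an annotated gene on the opposite strand. The F/M level fell from 76.1, 80.3 and 70.6 CPM to 62.5, 67.6 and 60.2 CPM (log2 -0.22, SE 0.048, adjusted p = 0.00255). The difference of 1.18 between the tissues passed the test (SE 0.172, adjusted p = 4.74e-06). *Neto2* changed by -0.09 in Cb (adjusted p = 0.00736), with -0.03 for F/M (adjusted p = 0.658).

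Of the 7 NMDA receptor subunits, which form the slow, calcium-permeable channels, 4 fell and 2 rose in Cb, none by 1.5-fold. Of all tested genes 27.9% fell and 29.8% rose there. *Grin2c*, the GluN2 subunit of mature granule cells, was 325, 325 and 335 CPM in Cb-N and 236, 236 and 235 in Cb-T and fell (log2 -0.46, SE 0.025, adjusted p = 5.74e-20). The obligatory subunit *Grin1* fell by 0.18 (SE 0.025, adjusted p = 4.74e-08) and *Grin2a* by 0.17 (SE 0.036, adjusted p = 9.55e-05). *Grin2b*, a GluN2 subunit of the forebrain and of young neurons, rose from 32.9, 31.7 and 27.8 CPM to 34.9, 37.5 and 34.5 (log2 0.22, SE 0.054, adjusted p = 0.000584). In F/M it fell from 608, 674 and 546 CPM to 469, 569 and 513, with overlap (log2 -0.20, SE 0.058, adjusted p = 0.0164), and the 0.44 between the tissues passed at the FDR limit (adjusted p = 0.00166). The difference for *Grin2c*, -0.37, passed as well (adjusted p = 4.13e-07), its F/M change being -0.07 (adjusted p = 0.302).

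*Grin3a*, a subunit that lowers calcium entry, rose by 0.15 in Cb (SE 0.046, adjusted p = 0.00461), with 0.11 for F/M (SE 0.038, adjusted p = 0.0473), and *Grin2d* did not pass in Cb or F/M, at -0.06 and -0.09. *Grin3b* was low in every library, at 1.33, 1.42 and 1.44 CPM in Cb-N and 0.928, 1.01 and 0.870 in Cb-T (log2 -0.56, SE 0.242, adjusted p = 0.0497). It overlaps *Tmem259* on the opposite strand. Its change in Cb stood at 1.48-fold, just short of the limit, and it became a DEG without Cb-N1 (log2 -0.60, adjusted p = 0.0726) or without Cb-T2 (log2 -0.62, adjusted p = 0.067). It lost the FDR limit without Cb-N3 (adjusted p = 0.104) or Cb-T3 (adjusted p = 0.124), and also with DESeq2 (adjusted p = 0.149) and in a single fit of all 12 libraries (adjusted p = 0.102). Per length, *Grin2c* made up 88.7% ± 0.579 of the GluN2 sum in Cb-N and 85.7% ± 0.117 in Cb-T, and *Grin2b* 1.69% ± 0.163 and 2.62% ± 0.117 (exact permutation p = 0.1 for each, the smallest possible). In F/M *Grin2b* led at 52.0% ± 2.00 in F/M-N and 50.1% ± 1.76 in F/M-T (exact permutation p = 0.2). The sizes depend on the division by exon length: by counts alone *Grin2c* held 71.35% in Cb-N and 65.25% in Cb-T, and *Grin2b* 6.70% and 9.85%.

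*Grid1*, which encodes a delta receptor that binds cerebellins across the synapse, rose in Cb from 25.2, 27.8 and 25.7 CPM to 31.4, 30.2 and 31.9, without overlap (log2 0.26, SE 0.053, adjusted p = 5.49e-05). In F/M it was at -0.03 (adjusted p = 0.689). The difference of 0.31 passed at the FDR limit (adjusted p = 0.000554).

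The 6 metabotropic receptors held both a strong increase and the strongest decrease of the 37 genes in Cb. *Grm5* encodes mGluR5, a receptor coupled to phospholipase C that in the adult brain is common in forebrain neurons. It lies on chromosome 7 from 87584168 to 88134907 on the plus strand. It was 12.07, 11.97 and 12.24 CPM in Cb-N and 35.6, 33.0 and 35.5 CPM in Cb-T, so that the groups stood well apart (2.89-fold, log2 1.53, SE 0.061, adjusted p = 2.12e-24). Levels in F/M were 302, 316 and 294 CPM in F/M-N and 273, 295 and 280 in F/M-T, which overlap narrowly (log2 -0.07, SE 0.033, adjusted p = 0.134). The change in Cb exceeded that in F/M by 1.62 (SE 0.067, adjusted p = 1.04e-17).

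*Grm2*, an inhibitory presynaptic receptor that marks Golgi cells and some unipolar brush cells in the cerebellum, lies on chromosome 9 from 106643095 to 106656082 on the minus strand and overlaps an annotated gene on the plus strand. It was 22.0, 22.9 and 22.0 CPM in Cb-N and 10.54, 9.98 and 9.90 CPM in Cb-T, with every Cb-T library below every Cb-N library (2.18-fold, log2 -1.13, SE 0.070, adjusted p = 1.18e-17). In F/M it fell from 49.0, 48.4 and 52.8 CPM to 42.3, 42.5 and 41.0 (log2 -0.22, SE 0.046, adjusted p = 0.00169). The decrease was larger in Cb by 0.88 on the log2 scale (interaction -0.88, SE 0.078, adjusted p = 4.55e-10). *Eomes*, a transcription factor of unipolar brush cells that was listed here with the olfactory bulb, was 53.2, 52.2 and 54.1 CPM in Cb-N and 10.96, 11.8 and 11.6 CPM in Cb-T (log2 -2.20, SE 0.055, adjusted p = 4.05e-32). The part of unipolar brush cells in the *Grm2* result was not tested.

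*Grm4*, a presynaptic receptor of granule cells, fell in both tissues. It was 410, 394 and 386 CPM in Cb-N and 311, 298 and 295 in Cb-T (log2 -0.38, SE 0.026, adjusted p = 1.15e-16), and 41.6, 40.7 and 40.6 CPM in F/M-N and 30.8, 29.0 and 29.8 in F/M-T (log2 -0.42, SE 0.048, adjusted p = 2.45e-06). The F/M change was the largest of the 36 genes tested there, and the difference between the tissues, 0.06, did not pass (SE 0.052, adjusted p = 0.485). *Grm8* was at -0.18 in Cb (adjusted p = 0.0844), with 0.00 for F/M, *Grm7* at 0.07 and -0.11, and *Grm3* at -0.05 and -0.13, where *Grm7* and *Grm3* passed the FDR limit in F/M only. Granule cell markers, 7 of 9 in Cb, fell in the same libraries as *Grm4* and *Grin2c*, with a median of -0.32. Of all tested genes 27.9% fell in Cb. Of the 1707 genes at least 2-fold higher in Cb-N than in F/M-N, 59.2% fell, with a median of -0.27 for the 1707. The part of granule cells in the *Grm4* and *Grin2c* results was not tested.

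Of the 6 postsynaptic scaffolds, 5 fell and 1 rose in Cb, where 27.9% of all tested genes fell and 29.8% rose. *Shank1*, a large scaffold that ties receptors to the cytoskeleton, was 342, 349 and 332 CPM in Cb-N and 251, 238 and 222 in Cb-T (1.43-fold, log2 -0.51, SE 0.029, adjusted p = 5.49e-19). *Shank3* fell from 283, 290 and 284 CPM to 214, 211 and 194 (log2 -0.46, SE 0.029, adjusted p = 1.26e-17) and *Shank2* from 320, 316 and 299 CPM to 243, 231 and 227 (log2 -0.40, SE 0.028, adjusted p = 2.41e-16). For none of the 3 Shank genes did the libraries overlap between Cb-N and Cb-T. The share of the Shank sum in Cb changed by 1.27 points for *Shank2*, by -1.30 points for *Shank1* and by 0.0309 points for *Shank3* (exact permutation p = 0.1, 0.1 and 1). In F/M *Shank2* fell by 0.27 (SE 0.039, adjusted p = 3.65e-05), *Shank1* by 0.13 (SE 0.037, adjusted p = 0.0134) and *Shank3* by 0.10 (SE 0.035, adjusted p = 0.0531). *Dlg4*, which encodes PSD-95, changed by -0.08 in Cb (adjusted p = 0.00648), with -0.03 for F/M (adjusted p = 0.378).

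The Homer proteins link metabotropic receptors to Shank and to calcium stores. *Homer3*, the form of Purkinje cells, fell in Cb from 312, 312 and 304 CPM to 269, 278 and 271 (log2 -0.17, SE 0.025, adjusted p = 1.30e-07). *Homer2* rose there from 30.9, 27.5 and 27.4 CPM to 36.1, 37.2 and 33.9 (log2 0.33, SE 0.053, adjusted p = 7.97e-07). In F/M *Homer2* fell, from 100, 104 and 94.3 CPM to 83.5, 90.0 and 79.5 (log2 -0.20, SE 0.044, adjusted p = 0.00241), and the difference of 0.56 between the tissues passed at the FDR limit, at 1.47-fold (SE 0.074, adjusted p = 1.01e-06). Between the pair, the share of *Homer2* per length was 68.8% ± 1.86 in F/M-N and 63.8% ± 3.02 in F/M-T, and 2.46% ± 0.151 and 3.45% ± 0.132 in Cb (exact permutation p = 0.1 for each, the smallest possible). By counts alone it was 89.0% in F/M-N, 86.6% in F/M-T, 8.45% in Cb-N and 11.6% in Cb-T.

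**Figure D3:**
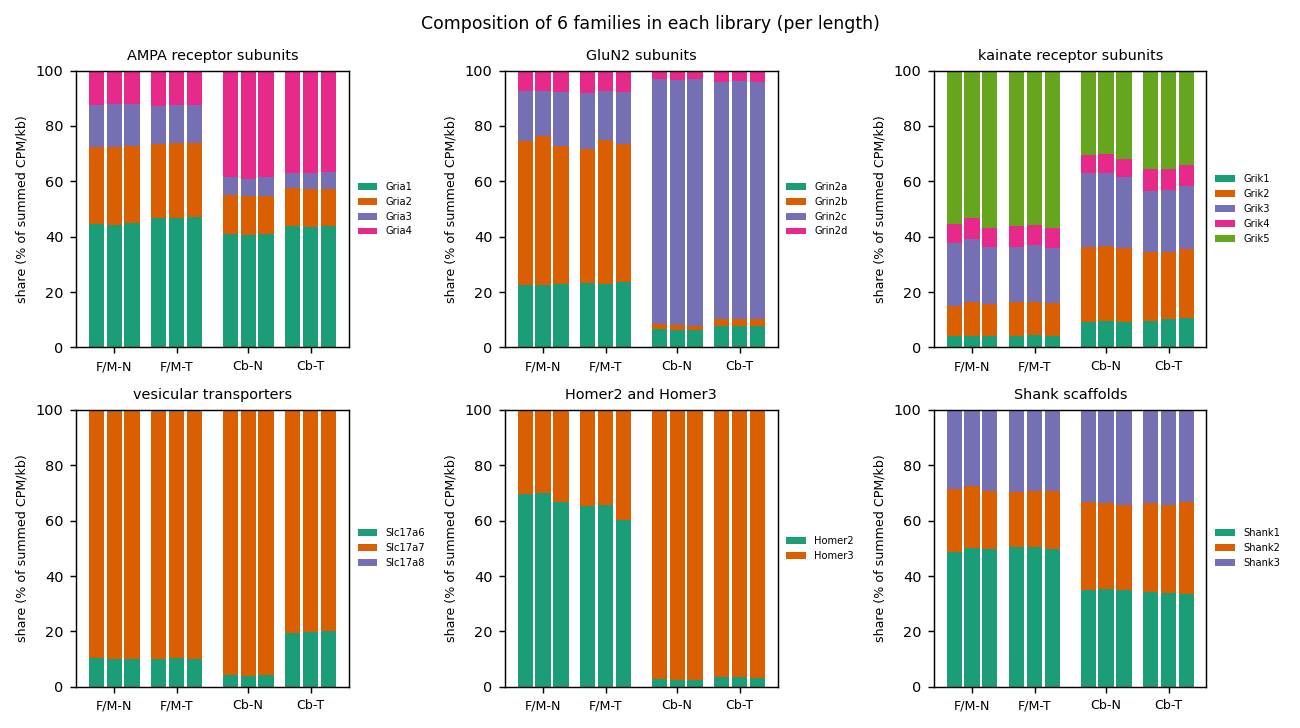
Share of each gene (y axis, percent of the summed CPM per kilobase of its family) in each of the 12 libraries for 6 families, 3 bars per group. *Slc17a6* takes 4.09% of the vesicular transporters in Cb-N and 19.8% in Cb-T, and *Grin2c* 88.7% and 85.7% of the GluN2 subunits in Cb-N and Cb-T.

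The wild-type baseline differed strongly between the tissues. Of the 37 genes, 7 were higher and 21 lower in Cb-N than in F/M-N by at least 1.5-fold, against 19.2% and 22.8% of all 16725 genes tested, with a median log2 ratio of -0.79. *Homer3* (log2 4.65) and *Slc1a6* (4.01) stood highest in Cb-N relative to F/M-N, and *Neto1* (-5.14) and *Slc17a8* (-5.03) lowest. These ratios share the Cb-N and F/M-N libraries with the genotype comparisons, so the values are given side by side and no correlation was computed. Of the 5 tested genes at least 4-fold lower in Cb-N, *Slc17a6* (-2.59), *Grm5* (-4.66), *Cnih3* (-4.66) and *Neto1* (-5.14) were upregulated DEG in Cb, and *Grin2b* (-4.31) rose by 0.22 only. Of all 806 genes with such a baseline, 59.9% were upregulated DEG in Cb, a share raised by the filter on low counts, since 205 of them were tested only because Cb-T lifted them over it. Among the 601 that passed the filter through Cb-N itself, as all 5 glutamate genes did, the share was 51.4%. Of the 6 genes at least 2-fold higher in Cb-N, *Gria4*, *Grin2c*, *Grin3b*, *Grm4*, *Slc1a6* and *Homer3*, none was a downregulated DEG in Cb and all 6 fell, by between 0.17 and 0.56. Of all 1707 genes with that baseline, 15.3% were downregulated DEG and 59.2% fell at the FDR limit alone. *Grm2*, the downregulated DEG, was 2.25-fold lower in Cb-N than in F/M-N.

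**Figure D4:**
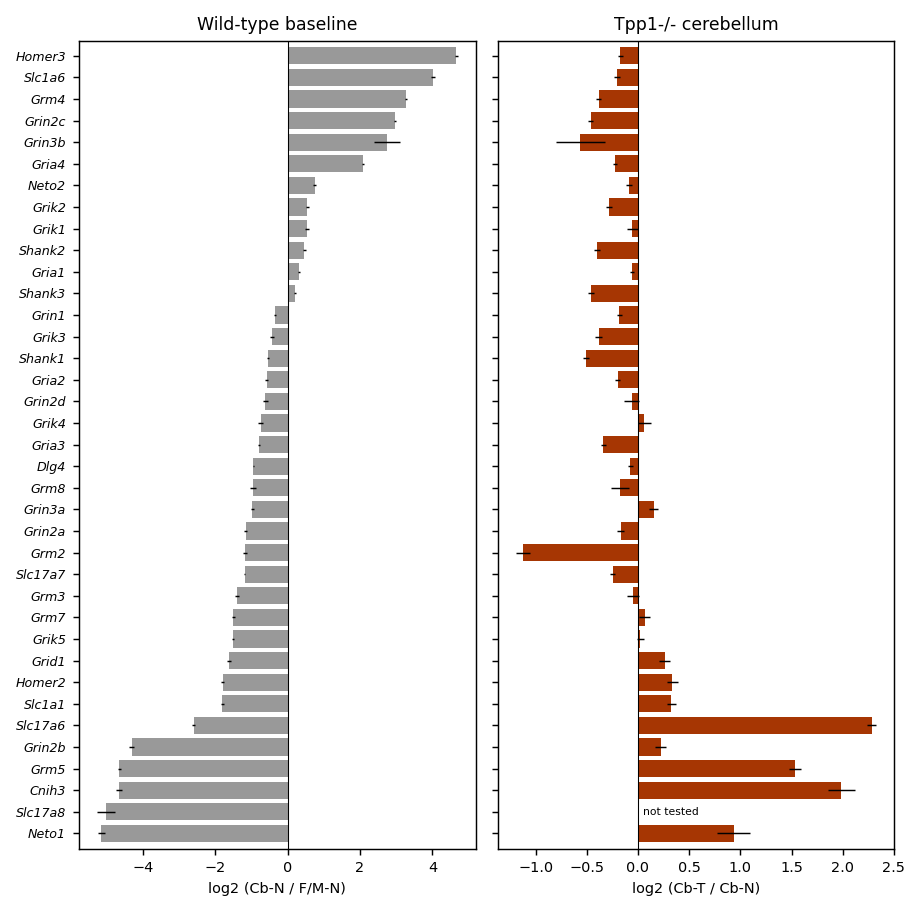
Left, log2 ratio of Cb-N to F/M-N for the 37 genes, and right, log2 fold change of Cb-T over Cb-N for the same genes in the same order (bars with SE; y axis, genes ordered by the left panel). The 4 long bars to the right, *Slc17a6*, *Grm5*, *Cnih3* and *Neto1*, belong to genes near the bottom of the order, and the 6 genes at the top have small negative bars. The panels share the Cb-N libraries.

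The other genes of the glutamate synapse were counted from a separate list of 53, of which 52 could be tested in each tissue. In Cb 6 of them (11.5%) were upregulated DEG and 1 was a downregulated DEG, near the 8.54% and 2.66% of all tested genes, with a median of -0.08. At the FDR limit alone 18 of the 52 rose and 27 fell in Cb, against 29.8% and 27.9% of all tested genes, and 4 rose and 28 fell in F/M, against 12.8% and 14.4%. The largest increases were those of *Cbln2* (log2 3.20, SE 0.144, adjusted p = 1.23e-22) and *Cbln4* (2.21, SE 0.171, adjusted p = 1.06e-14), secreted cerebellins that bridge neurexins and delta receptors, and of *Nptx2* (1.73, SE 0.192, adjusted p = 2.87e-10), a pentraxin that clusters AMPA receptors. *Cbln2* was 1.55, 0.917 and 1.02 CPM in Cb-N and 10.96, 10.7 and 10.4 CPM in Cb-T. The downregulated DEG was *Homer1*, at 69.6, 68.5 and 63.7 CPM in Cb-N and 43.3, 46.2 and 41.5 in Cb-T (log2 -0.61, SE 0.043, adjusted p = 7.76e-16). *Homer1*, whose short form is induced by neuronal activity, was also the only DEG of the list in F/M (log2 -0.79, SE 0.036, adjusted p = 2.06e-12), where the median of the list was -0.10. Its difference between the tissues, 0.20, fell short of 1.5-fold.

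The marker lists that moved with these changes in Cb are given by their sums and a few members. Genes enter a test at 0.441 CPM or more in 3 libraries, so that a gene below this level in Cb-N entered through Cb-T, where it was high. This held for each of the 10 Hox genes tested, and no count of calls is drawn from them. *Hoxb5*, the most abundant, was 0 CPM in the 3 Cb-N libraries and 3.21, 2.33 and 2.07 CPM in Cb-T. *Hoxa5* averaged 0.0450 and 2.24 CPM and *Hoxb3* 0.0920 and 1.72 CPM in Cb-N and Cb-T. The brainstem neuron markers summed to 55.8 to 58.1 CPM in Cb-N and 79.3 to 81.1 CPM in Cb-T. Of those that entered through Cb-N itself, 4 of 6 were upregulated and 1, *Tlx3* (log2 -0.60), was a downregulated DEG, against 6.34% and 2.77% of all genes that entered in this way, with *Slc5a7* of cholinergic neurons at log2 2.83 and *Tph2* of serotonergic neurons at 1.70, whereas *Slc6a5* of glycinergic neurons was at -0.02 and did not pass. Of the thalamus and midbrain markers that did so, 1 of 2 was an upregulated DEG. *Tcf7l2* was 6.30, 6.37 and 6.68 CPM in Cb-N and 39.6, 35.7 and 34.8 in Cb-T, *Shox2*, which entered through Cb-T, was 0.355, 0.183 and 0.0928 CPM and 11.5, 8.86 and 10.6 CPM, and *Lef1* was at 0.11 and did not pass. Of the forebrain markers that entered through Cb-N, 1 of 6, *Drd2* (log2 3.22), was an upregulated DEG, and *Ppp1r1b*, *Neurod6* and *Tbr1* were at -0.13, -0.28 and -0.33. Their sum was 166 to 176 CPM in Cb-N against 160 to 161 in Cb-T.

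The summed glial markers were higher in Cb-T than in Cb-N, at 125 to 134 and 338 to 355 CPM for microglia, 1149 to 1160 and 2657 to 2700 for astrocytes, and 4531 to 4639 and 5955 to 6012 for oligodendrocytes, with 6 of 8, 2 of 6 and 0 of 6 markers called as upregulated DEG, against 8.54% of all tested genes. The 6 astrocyte markers had a median log2 change of 0.43 in Cb and a largest of 2.91, so their sum does not describe most of them. The general neuron markers summed to 6417 to 6509 CPM in Cb-N against 5861 to 5975 in Cb-T, with 0 of 8 DEG. Granule and Purkinje markers stood at no more than 194 and 1115 CPM in F/M, and forebrain markers at 705 to 743 CPM in F/M-N against 160.4 to 175.7 CPM in Cb, so that each tissue carried the markers of its label. In F/M the olfactory bulb markers, *Eomes*, *Cdhr1* and *Doc2g* among them, were downregulated DEG in 6 of 6 cases, against 0.858% of all tested genes, with a sum of 40.5 to 42.0 CPM in F/M-N and 14.9 to 16.4 CPM in F/M-T. In Cb 1 of the 2 that entered through Cb-N was a downregulated DEG. The other lists had in F/M 2 of 8 brainstem, 1 of 7 Purkinje cell, 3 of 8 microglia and 1 of 6 astrocyte markers as upregulated DEG, against 2.63% of all tested genes, and 1 of 9 granule cell markers as a downregulated DEG. Whether markers entered the F/M test only through the group where they were higher was not checked, so the F/M counts may be raised. The part of any of these cells in the changes of the glutamate genes was not tested.

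**Figure D5:**
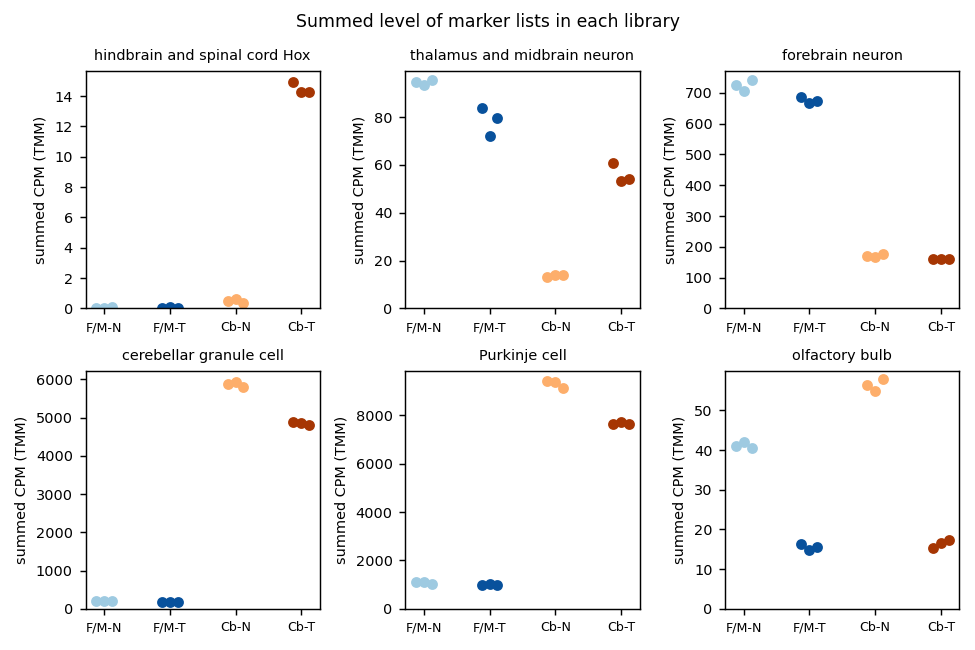
Summed CPM (y axis, linear and starting at 0) of 6 marker lists in each library of the 4 groups; points are libraries. Hox genes sum to at most 0.596 CPM in Cb-N and at least 14.2 in Cb-T, and thalamus and midbrain markers to at most 14.0 and at least 53.3, whereas granule and Purkinje cell markers are lower in Cb-T than in Cb-N. The olfactory bulb list is lower in F/M-T than in F/M-N, and its sum in Cb is mostly *Eomes*, at 52.2 to 54.1 CPM in Cb-N and 10.96 to 11.8 CPM in Cb-T.

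The smaller changes varied in how firmly they held. In Cb 25 of the 30 genes that rose or fell did so under every alternative fit and without any 1 library. Beside *Grin3b*, *Grm8* lost the FDR limit without Cb-N1 (adjusted p = 0.159), Cb-N3 (0.125) or Cb-T2 (0.254), with DESeq2 (0.189), with library size alone (0.199) and without the filter on low counts (0.146). *Gria1*, *Dlg4* and *Neto2* lost it only when libraries were scaled by size alone (adjusted p = 0.555, 0.242 and 0.163). In F/M 8 of 16 held under every fit, namely *Gria3*, *Grik3*, *Grm2*, *Grm4*, *Homer2*, *Shank1*, *Shank2* and *Neto1*. *Grin2b* was lost without F/M-T1 (0.124) or with DESeq2 (0.249). *Grm3* was lost without F/M-N2 (0.106) or F/M-T1 (0.138) and *Gria2* without F/M-N2 (0.162), F/M-T1 (0.133) or F/M-T3 (0.119). *Grm7* was lost without F/M-N2 (0.177), F/M-T1 (0.123) or F/M-T3 (0.102) or with DESeq2 (0.107), and *Grin3a* without F/M-N1 (0.131), F/M-N3 (0.141), F/M-T1 (0.112) or F/M-T2 (0.120), with DESeq2 (0.154) or in the single fit (0.132). *Grin1*, *Grin2a* and *Shank3*, at adjusted p between 0.0531 and 0.0863, were each lost without 4 or more of the 6 libraries taken in turn, F/M-N2 and F/M-T1 among them, and with library size alone (0.232, 0.110 and 0.120). *Grin1* was also lost with DESeq2 (0.137).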

How the data were processed

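RNA of Cb and F/M was extracted with TRIzol and sequenced as 50-base single-end reads from stranded, poly(A)-selected libraries. The authors aligned reads to the mouse genome with STAR (2.5.1b in the submitters' processing notes) and counted reads per gene with featureCounts; the deposited values are raw counts per gene and library, not normalized. How strand and multiply aligned reads were treated, and the annotation release, are not given in the sources used here. Overlapping genes on the opposite strand, annotated for 14 of the 37 genes, may therefore share reads.

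In R 4.3.3, edgeR 4.0.16 was used per tissue with genotype as the only factor: filterByExpr (minimum count 10, total 15), TMM, glmQLFit and glmQLFTest, with Benjamini-Hochberg adjustment over all tested genes. Adjusted p-values come from this test unless an alternative is named beside them. Wild-type tissues were compared likewise, and the interaction used all 12 libraries. CPM were put on one TMM scale over the 12 libraries, while fold changes come from the separate fits. Positions and exon lengths are from GENCODE for GRCm38. Shares were compared in 42 exact permutation tests, two-sided, which cannot give a p below 0.1 with 3 against 3 libraries, so none can pass 0.05 before or after adjustment. The test was checked on simulated counts with 200 genes changed 2-fold: 198 were recovered in Cb with 2 false calls among 16340 genes, 199 in F/M with 4 among 16661, 185 in the interaction with 4 among 17454, and 193 in the baseline with 0 among 16604. The simulation gave every gene the same spread, changed no gene of low mean count and scored calls with the fold limit. It therefore does not cover low counts or changes at the FDR limit alone. Alternatives were DESeq2 1.42.0, limma-voom (limma 3.58.1), RLE factors, library size alone, no filter, a mean count of at least 50, FDR below 0.05, no fold limit, one fit of all libraries, a replicate block, counts without gene length for the shares, and leaving out each library.

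The members and gene lists were chosen with earlier results of these data known. Named genes are the 37 members and *Tpp1*, of the other glutamate synapse genes up to 3 DEG with the largest increase and decrease per tissue, and of each marker list with a DEG up to 3 genes of highest mean CPM; *Tlx3* and *Drd2* were named after their values were seen, and a few results are not reported here. No pair of libraries agreed within sampling noise (chi-square per degree of freedom 1.28 to 3.59).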

Additional observations from a re-analysis of the deposited data

Results flagged for a closer look

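For 6 of the 37 genes the change with genotype differed between Cb and F/M by at least 1.5-fold in the tissue-by-genotype interaction test of edgeR over all 12 libraries. This test called 6.41% of all 17482 tested genes higher and 1.2% lower. The differences of the log2 fold changes, Cb minus F/M, were 2.33 for *Slc17a6* (adjusted p = 1.18e-23), 1.98 for *Cnih3* (adjusted p = 1.16e-12), 1.78 for *Slc17a8* (adjusted p = 0.00519), 1.62 for *Grm5* (adjusted p = 1.04e-17) and 1.18 for *Neto1* (adjusted p = 4.74e-06). For *Grm2* the difference was -0.88 (adjusted p = 4.55e-10). In Cb all libraries of *Slc17a6*, *Cnih3*, *Slc17a8*, *Grm5* and *Neto1* were higher in T than in N, and all libraries of *Grm2* were lower. In F/M only *Neto1* and *Grm2* of these 6 passed the FDR limit, both lower in T. *Slc17a8* rests on 2 to 23 counts per Cb library. The summed Hox, brainstem, and thalamus and midbrain markers were higher in the same Cb-T libraries. The summed forebrain markers were lower, at 160.4 to 161.4 CPM in Cb-T against 165.6 to 175.7 in Cb-N. Single markers also differed: *Lef1* and *Slc6a5* did not pass the test in Cb and *Tlx3* was a downregulated DEG. The tested Hox genes entered through Cb-T alone. The part of neighbouring regions in these differences was not tested.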

How the results depend on the processing

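The 5 DEG in Cb, and 0 in F/M, were the same in number under DESeq2, limma-voom, RLE factors, library size alone, a mean count of at least 50, FDR below 0.05 and the replicate block. No filter and a single fit of all libraries each gave 5 higher in Cb. Without a fold limit the genes called in Cb went from 4 to 9 higher and from 1 to 21 lower (all genes from 1835 to 9442), in F/M from 0 to 1 higher and from 0 to 15 lower (all genes from 581 to 4541), in the interaction from 5 to 10 higher and from 1 to 12 lower (all genes from 1331 to 4816) and in the baseline from 7 to 12 higher (all genes from 7020 to 13459), by construction. A mean count of at least 50, which tests fewer genes, gave 897 genes in Cb, 259 in F/M and 877 in the interaction. DESeq2 called 365 genes in F/M; the cause was not tested.

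Leaving out each library in turn gave 4 to 5 genes called higher in Cb (5 without Cb-N1, Cb-N2, Cb-N3 or Cb-T2). The gene added was *Slc17a8*, which entered these tests through Cb-T alone, where it was higher, so its call adds no support. The interaction had 5 to 6 higher (*Homer2* without F/M-N3, F/M-T2 or Cb-N1) and 1 to 2 lower (*Grin3b* without F/M-T3). In Cb 1 to 2 were called lower (*Grin3b* without Cb-N1 or Cb-T2). In F/M 0 to 1 rose and 8 to 15 fell at the FDR limit, with 9 falling without F/M-N2 and 8 without F/M-T1. The 1 gene rising in F/M became 0 with DESeq2 or a single fit of all libraries, and 2 with library size alone or the replicate block. Correlations of the deviations of same-numbered libraries from their group means lay between -0.0157 and 0.0616. They cannot tell whether same-numbered libraries share a mouse, since counting noise can hide a shared deviation. With the replicate block 4 members were higher and 1 lower in Cb and 0 and 0 in F/M, 18 fell in F/M at the FDR limit instead of 15, and 1834 and 607 genes were called over all. No member past the FDR limit changed sign under these alternatives, and those not past it did so in 1 of 96 values in Cb, 16 of 320 in F/M and 11 of 314 in the interaction. Depth limits *Slc17a8* and *Grin3b*, whose levels lie near the floor in one tissue.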
